A study of Mus musculus with 6 samples.

Results

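Long noncoding RNAs are transcripts that act as RNA, or whose transcription acts, without being translated into protein. The 7 named here are Neat1, Malat1, H19, Meg3, Pvt1, Gas5 and Snhg1, found by symbol among 32061 genes in read counts from isolated mouse hepatocytes, the metabolic cells of the liver. In 3 samples, labelled senescent, the mice were AhCre+Mdm2fl/fl: they carried a Cre recombinase gene and, on both chromosomes, an Mdm2 allele that Cre can delete. The 3 control samples, labelled healthy, came from AhCre- mice, whose Mdm2 alleles the labels do not give. In AhCre, the Cyp1a1 promoter drives Cre when the aryl hydrocarbon receptor is bound by a ligand, and the labels of both groups record one, β-naphthoflavone, given at 20 mg/kg with 48 h of induction. The cells were freed by collagenase perfusion at 10 to 12 weeks of age, and the libraries were made from poly-A selected RNA. Effects of Cre and of Mdm2 deletion cannot be told apart in this design. Nothing says that the samples are separate animals, so a p-value here reflects only how far these samples spread, which may be technical.

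The product of Mdm2 marks p53, a transcription factor of the stress response, for degradation, and Cdkn1a, the cell cycle inhibitor p21, is a p53 target. Several of the 7 RNAs are tied to this response in other work. Neat1 is the scaffold of paraspeckles, nuclear bodies assembled on the RNA, and it is transcribed under p53. Malat1 lies beside it on the chromosome and gathers in nuclear speckles, which hold splicing factors. Pvt1 is a neighbour of the Myc oncogene, and a p53-driven isoform of it in mouse lowers Myc transcription in cis. H19 and Meg3 are imprinted RNAs, expressed from the maternal chromosome, and H19 is abundant in fetal liver and silenced after birth. Gas5 and Snhg1 carry small nucleolar RNAs (snoRNAs), guides of ribosomal RNA modification, in their introns. Gas5 was found as an RNA that accumulates when growth stops, and it can bind the glucocorticoid receptor.

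Of the 7, Pvt1 was called higher in the senescent hepatocytes under every setting tried, where 20.4% of all 12949 tested genes were also called higher. Pvt1 entered testing through the senescent libraries, where it is high, and was also called with no filter on counts. Pvt1 went from a trace to a moderate level, with a healthy mean of 0.438 ± 0.437 CPM (SD, n = 3) and a senescent mean of 6.89 ± 0.480 CPM, the unit being read counts scaled to library size. Meg3 was near the limit of detection throughout, with 37 counts over the senescent and 5 over the healthy libraries. It entered testing only through the senescent libraries, and its call was lost in 5 of the 6 fits that left out 1 library. Malat1, Neat1, Gas5 and Snhg1 were well expressed and were not called at the chosen settings. In Malat1, Neat1 and Gas5 that outcome turned on a single healthy library. Malat1 was also called by DESeq2, on total library size and with a replicate block, and Snhg1 on total library size. H19 failed the low-count filter and was not tested at the chosen settings, with 67 counts over the healthy and 3 over the senescent libraries. In bulk samples such as these, fewer cells of a type and less RNA per cell cannot be told apart.

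CPM were taken on library totals scaled by the trimmed mean of M-values (TMM). Each log2 fold change is senescent over healthy and is given ± SE from edgeR's quasi-likelihood F test, two-sided, with Benjamini-Hochberg adjustment over all tested genes. A gene was called at an adjusted p under 0.05. In either direction 41.1% of tested genes were called, 20.4% higher and 20.7% lower, and each count of a gene list below is to be read beside these shares. Among 320 tested genes of the annotation's long noncoding classes, 36.2% were called, 38 higher (11.9%) and 78 lower (24.4%), with a median log2 fold change of -0.28 against 0.01 over all tested genes. The libraries held 28799392 to 33267299 counts each, and a count of 0 allows up to 3 counts, or 0.0837 to 0.117 CPM. Mdm2, counted over the whole gene, stood at 465, 463 and 501 CPM in senescent replicates 1, 2 and 3, and the healthy ones were at 19.03, 22.7 and 22.0 CPM. This count does not check the deletion of the floxed exons. Cdkn1a had 653, 773 and 724 CPM against 21.3, 31.1 and 54.3 CPM, so both separated the labelled groups.

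The poly-A selection bears on which of these RNAs could be counted, because a tail is added where an AAUAAA-like signal lies shortly before the 3′ end. The last 50 bases of 1 annotated transcript of each gene, and of both kinds of Neat1, are shown for this reason. They come from the GENCODE M21 transcripts on GRCm38, are written 5′ to 3′ as DNA, and have the signal hexamer (AATAAA or ATTAAA) in capitals.

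Neat1-202: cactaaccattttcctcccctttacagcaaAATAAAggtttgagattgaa

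Neat1-201: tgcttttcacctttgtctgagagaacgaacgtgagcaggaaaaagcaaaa

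Malat1-201: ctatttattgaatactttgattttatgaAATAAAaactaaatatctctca

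H19-202: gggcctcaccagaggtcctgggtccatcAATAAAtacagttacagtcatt

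Meg3-209: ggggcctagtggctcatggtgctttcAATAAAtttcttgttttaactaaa

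Pvt1-202: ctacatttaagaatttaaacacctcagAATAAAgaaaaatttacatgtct

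Gas5-218: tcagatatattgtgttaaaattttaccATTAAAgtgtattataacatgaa

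Snhg1-215: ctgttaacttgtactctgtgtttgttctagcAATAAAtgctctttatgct

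The short Neat1-202 (3004 bases) had the signal 14 bases before its end, and the long Neat1-201 (20771 bases) had none in this window. The long form is the one that builds paraspeckles, and its 3′ end, like that of mature Malat1, is cut by RNase P and stabilised by a triple helix in place of a poly-A tail. Malat1-201, shown because its annotated end has a signal, had it 16 bases before that end. Counts of Neat1 and Malat1 from poly-A selected RNA can therefore miss part of the RNA. Counts were given per gene, so the 4 annotated transcripts of Neat1, or the 10 of Pvt1, were not separated.

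Per kilobase of exon, a scale meant for comparing genes, the healthy levels were ordered Malat1, Gas5, Neat1, Snhg1, H19, Pvt1 and Meg3. The length is that of all annotated exons of a gene together, whichever transcripts were counted, so the order depends on it. For Neat1 it was 20771 bases, that of the long form, against 3004 for Neat1-202. The healthy means were 23.3 ± 9.21 CPM per kb for Malat1, 20.2 ± 5.35 for Gas5, 7.73 ± 4.10 for Neat1 and 2.02 ± 0.376 for Snhg1 (SD, n = 3). Below them lay H19 at 0.335 ± 0.255, Pvt1 at 0.0626 ± 0.0625 and Meg3 at 0.00352 ± 0.00451 CPM per kb. Malat1 and Gas5 overlapped between the healthy libraries, as did H19 and Pvt1, while Neat1 lay below Gas5 and above Snhg1 in every healthy library. In senescent libraries Pvt1, at 0.985 ± 0.0686 CPM per kb, stood above Meg3, at 0.0196 ± 0.00399, and H19, at 0.0118 ± 0.0118, in each library, and the last pair overlapped. Over all 6 libraries, Malat1 ranked 7, Gas5 17 and Neat1 26 among 941 detected long noncoding genes on this scale, and Meg3 ranked 669.

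**Figure D1:**
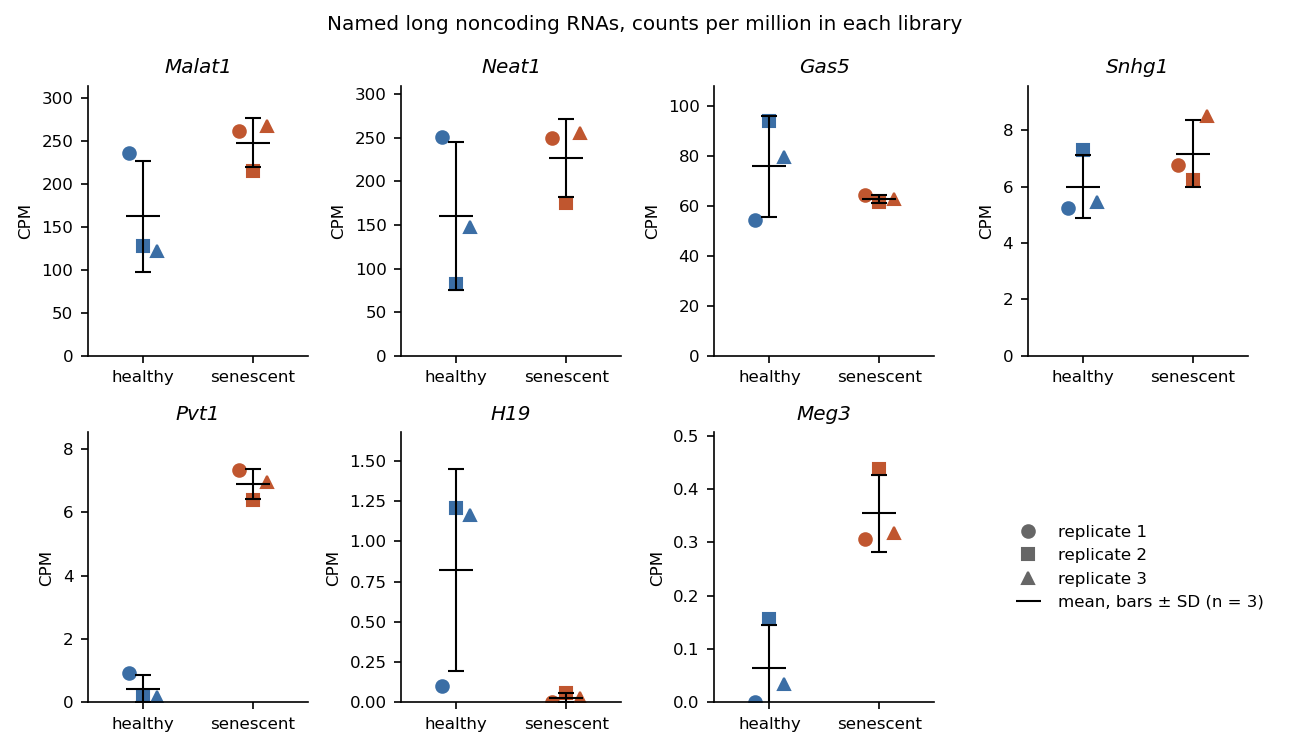
Normalised counts (CPM) of each long noncoding RNA in 3 healthy (blue) and 3 senescent (orange) libraries, with the symbol giving the replicate number, the line the mean and the bars the SD (n = 3); each panel has its own linear axis from 0. Pvt1 and Meg3 are higher in every senescent than in any healthy library, H19 is lower in every one, and healthy replicate 1 lies beside the senescent libraries for Malat1 and Neat1.

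Pvt1 (ENSMUSG00000097039; GRCm38 chr15:62037986-62378096, plus strand) is an intergenic long noncoding gene of 6996 exonic bases spread over a long locus. It had 263, 219 and 240 counts in senescent replicates 1, 2 and 3, and 28, 5 and 5 counts in healthy replicates 1, 2 and 3. These are 7.34, 6.38 and 6.95 CPM against 0.943, 0.195 and 0.177 CPM. The senescent libraries lay close together and far above the healthy ones, and healthy replicate 1 was the highest of its group.

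The log2 fold change of Pvt1 was 3.93 ± 0.49, a fitted 15.3-fold rise (edgeR adjusted p = 5.4e-04). Pvt1 passed the low-count filter through the senescent libraries, so this test is given as a description. Healthy replicates 2 and 3 had 5 counts each, under the minimum of 10. With no filter the log2 fold change was 3.93 (edgeR adjusted p = 3.1e-05). From the summed counts, 722 against 38, the ratio was 15.2 with a 95% interval of 11.0 to 21.6 that covers counting error only. The call held under each of the alternatives tried, but the size rested on healthy replicate 1: without it the log2 fold change was 5.18, and without each of the other libraries 3.54 to 4.03. The promoters of Pvt1, Neat1 and H19 were not analysed here. Named genes with the most similar profile were Sytl1, Tbc1d2 and Ptpdc1, at root mean square differences of 0.446, 0.458 and 0.504 in centred log2 CPM over the 6 libraries, among 7295 genes searched. These likenesses were chosen by value and carry no test.

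Myc, the transcription factor gene 47.6 kb upstream of Pvt1, did not follow it. Its levels were 3.04, 1.57 and 2.29 CPM in senescent replicates 1, 2 and 3 and 4.58, 11.3 and 1.27 CPM in the healthy ones. The groups overlapped, and healthy replicate 2 alone was far above the rest. The log2 fold change was -1.30 ± 0.64 (edgeR adjusted p = 0.14). Without healthy replicate 3, the lowest healthy library, it was -1.78 (edgeR adjusted p = 0.011), in a fit that keeps the high healthy replicate 2. On the other side Fam49b, at 1551 kb, was not called, at 0.42 ± 0.16 (edgeR adjusted p = 0.063), but was on total library size, at 0.74. Of 10 tested factors of the MYC network, 2 rose and 2 fell, with a median log2 fold change of -0.08. Mxd4, a repressor that competes for the MYC partner MAX, went from 70.9 to 125 CPM, and the MAX partner Mga from 13.7 to 18.5 CPM. Mxi1, also a MAX-binding repressor, fell from 18.6 to 11.1 CPM, and Mycl, a paralog of Myc, from 10.3 to 4.78 CPM. The call of Mycl was lost without senescent replicate 3, and that of Mga in 4 of the fits that left out 1 library. Of 15 MYC target genes of ribosome assembly, 2 rose, the growth regulator Pa2g4 and the pyrimidine synthesis gene Cad, and 1 fell, the rRNA methyltransferase gene Fbl, with a median of 0.03. On total library size those counts were 5 and 0, and the call of Cad was lost without senescent replicate 3.

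**Figure D2:**
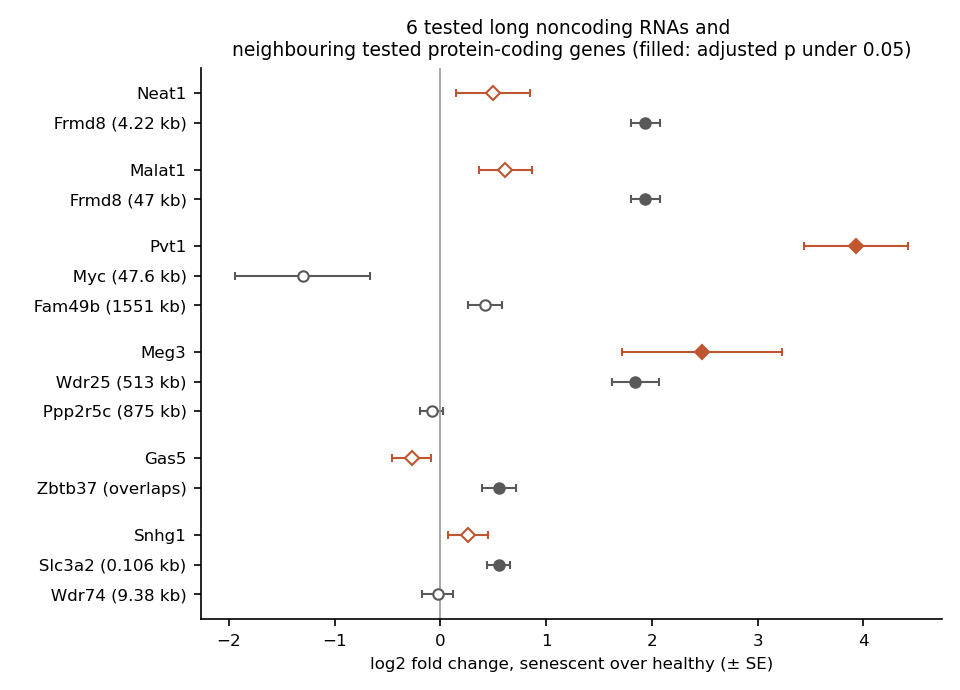
Log2 fold changes (senescent over healthy, ± SE, 3 libraries per group) of the 6 tested long noncoding RNAs (orange diamonds) and of neighbouring tested protein-coding genes (grey circles), with the distance between gene bodies in kb and filled symbols for an adjusted p under 0.05. Pvt1 is at 3.93 while Myc is at -1.30, and Frmd8, Wdr25, Zbtb37 and Slc3a2 rose beside Neat1, Meg3, Gas5 and Snhg1.

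Malat1 (ENSMUSG00000092341; chr19:5795690-5802672, minus strand) had 262, 216 and 268 CPM in senescent replicates 1, 2 and 3. It had 237, 128 and 122 CPM in healthy replicates 1, 2 and 3. The senescent libraries were high, healthy replicates 2 and 3 were low, and healthy replicate 1 lay within the senescent range. The log2 fold change was 0.61 ± 0.25 (edgeR adjusted p = 0.082), so no change was called. Without healthy replicate 1 it was 0.98 ± 0.14 (edgeR adjusted p = 0.0019) and without any other single library it was 0.44 to 0.75, not called. Malat1 was also called by DESeq2, at 0.60 (adjusted p = 0.044), and on total library size, at 0.93 (edgeR adjusted p = 0.017).

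Neat1 (ENSMUSG00000092274; chr19:5824708-5845478, minus strand) lies upstream of Malat1 on the same strand. It had 249, 175 and 256 CPM in senescent replicates 1, 2 and 3 and 251, 82.3 and 148 CPM in healthy replicates 1, 2 and 3. Again healthy replicate 1 was as high as the highest senescent libraries, so the groups overlapped. The log2 fold change was 0.50 ± 0.35 (edgeR adjusted p = 0.29). Without healthy replicate 1 it was 0.97 ± 0.27 (edgeR adjusted p = 0.028), and without healthy replicate 2 it was 0.18.

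The ratio of Neat1 to Malat1 counts asks whether the neighbours moved apart. Senescent replicates 1, 2 and 3 had ratios of 0.954, 0.814 and 0.955, and healthy replicates 1, 2 and 3 had 1.06, 0.641 and 1.21. The senescent values lay between the healthy ones, and the log2 difference was -0.05 (exact permutation test, two-sided, p = 1, where 3 against 3 cannot go below 0.1). Without healthy replicate 2 it was -0.32 and without healthy replicate 3 it was 0.13, so even its sign rested on single libraries. Malat1 was among the 3 named genes most like Neat1 in profile, at a root mean square difference of 0.291, and Ppp1r3c, a glycogen-targeting phosphatase subunit, was the closest, at 0.223. Nearest to Malat1 were Mreg, Ablim1 and Rfx5, at 0.133, 0.163 and 0.164.

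The protein-coding gene Frmd8, 4.22 kb from Neat1, rose from 16.8 to 64.4 CPM, a log2 fold change of 1.94 ± 0.13 (edgeR adjusted p = 2.3e-05). It did not share the high value of healthy replicate 1: Frmd8 had 15.4 CPM there and 17.7 and 17.3 CPM in the other healthy libraries.

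Of 17 paraspeckle protein genes, all tested, 7 rose and 2 fell, with a median log2 fold change of 0.30. The RNA-binding protein gene Hnrnph1 rose from 55.4 to 97.1 CPM. The core paraspeckle genes Sfpq, from 61.7 to 104 CPM, and Pspc1, from 4.54 to 7.55 CPM, also rose, and their partner Nono was not called, at 101 and 89.2 CPM. Taf15, an RNA-binding protein gene, fell from 97.1 to 63.8 CPM, and Nudt21, which with Cpsf6 directs 3′ end choice, from 23.6 to 18.4 CPM. Leaving out 1 library gave 2 to 7 higher and 1 or 2 lower, and total library size gave 13 higher and 0 lower, so the split depends on the scaling.

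Of 19 genes for nuclear speckle and SR splicing proteins, 5 rose and 0 fell by edgeR, with a median of 0.31. Over all tested genes, 20.4% were called higher and 20.7% lower. At an unadjusted p under 0.05, 9 were higher and 0 lower, and DESeq2 and limma-voom each called 6 higher and 0 lower. The large speckle scaffolds were among them: Son went from 97.6 to 169 CPM and Srrm2 from 165 to 222 CPM, the latter call being lost without senescent replicate 3 or healthy replicate 2. Total library size gave 15 higher, leaving out 1 library 1 to 8, and an adjusted p under 0.01 gave 0.

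Gas5 (ENSMUSG00000053332; chr1:161034422-161038539, plus strand) had 64.3, 61.3 and 62.6 CPM in senescent replicates 1, 2 and 3. It had 54.1, 93.9 and 79.3 CPM in healthy replicates 1, 2 and 3. The senescent libraries agreed closely and fell inside the healthy range, whose low end was healthy replicate 1. The log2 fold change was -0.27 ± 0.19 (edgeR adjusted p = 0.27). Without healthy replicate 1 it was -0.47 ± 0.12 (edgeR adjusted p = 0.019). On total library size, where the median of all genes moved to 0.33, it was 0.039 (edgeR adjusted p = 0.88).

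Snhg1 (ENSMUSG00000108414; chr19:8723475-8726443, plus strand) had 6.75, 6.24 and 8.51 CPM in senescent replicates 1, 2 and 3. Its healthy values were 5.25, 7.28 and 5.44 CPM. Both groups spanned a similar range and overlapped. Its log2 fold change came to 0.26 ± 0.19 (edgeR adjusted p = 0.31). It was called only on total library size, at 0.58 (edgeR adjusted p = 0.046). Closest in profile were D1Ertd622e, Irf2 and Mup21 to Gas5, at root mean square differences of 0.0671 to 0.0834, and Cyth2, Gramd1a and Plpp2 to Snhg1, at 0.0528 to 0.0734. The edgeR adjusted p-values of these 6 genes were 0.14 to 0.41.

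Each of these hosts contains 8 annotated snoRNA genes, and all 16 had 0 counts in every library, so the guides themselves could not be read from this table. Many host RNAs begin with a run of pyrimidines (a 5′ TOP start), which puts their translation, and with it their decay, under growth control. The first 40 bases of 1 annotated transcript of each (GENCODE M21, GRCm38, plus strand) show how they differ there, with runs of at least 5 pyrimidines in capitals.

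Gas5-218: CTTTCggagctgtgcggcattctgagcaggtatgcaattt

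Snhg1-215: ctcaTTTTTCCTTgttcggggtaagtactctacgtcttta

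The annotated Gas5 transcript opened with 5 pyrimidines, and that of Snhg1 with 3 before an A and then a longer run. Of 14 other genes of this 5′ TOP kind outside the ribosome, 1 rose and 5 fell, with a median log2 fold change of -0.30. Hnrnpa1, an RNA-binding protein gene, went from 68.7 to 88.2 CPM, a call lost in 4 of the fits that left out 1 library. The translation initiation factor gene Eif3f fell from 70.9 to 50.6 CPM and Tpt1 from 866 to 606 CPM. Total library size gave 3 higher and 0 lower, and leaving out 1 library 0 to 7 lower.

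Of 17 snoRNA host genes in the table, 15 were tested, 1 rose and 2 fell, with a median of -0.05. Snhg15 had 19.2, 20.1 and 22.6 CPM in senescent and 0.808, 1.83 and 2.30 CPM in healthy replicates 1, 2 and 3. Every senescent library was far above every healthy one, and the log2 fold change was 3.65 ± 0.30 (edgeR adjusted p = 6.1e-05), close in size to that of Pvt1. Snhg8 fell from 13.05 to 6.17 CPM, a log2 fold change of -1.08 ± 0.15 (edgeR adjusted p = 8.1e-04). Snhg6 fell from 7.91 to 5.69 CPM (edgeR adjusted p = 0.043), a call lost on total library size and in 5 of the fits that left out 1 library. Gas5 and Snhg1 lay between these extremes.

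**Figure D3:**
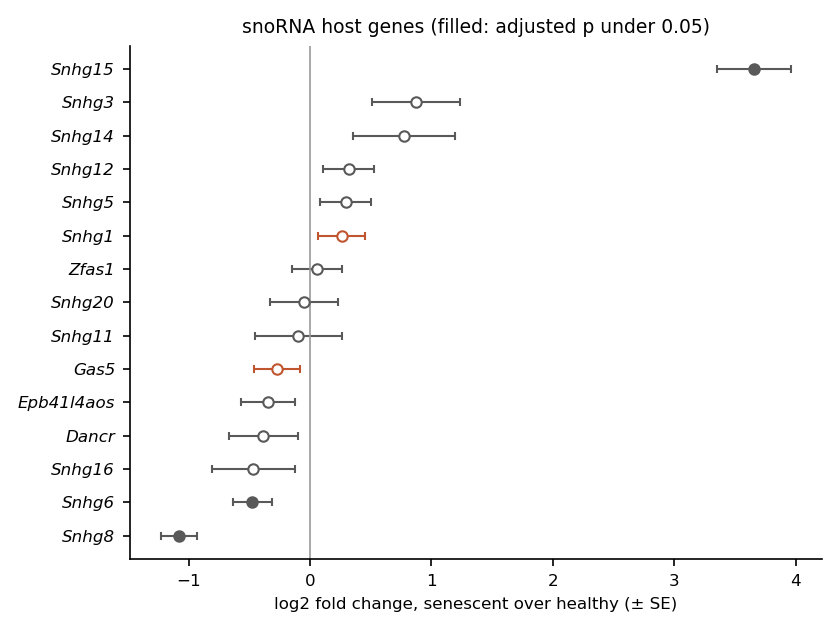
Log2 fold changes (senescent over healthy, ± SE, 3 libraries per group) of the 15 tested snoRNA host genes, with Gas5 and Snhg1 in orange and filled symbols for an adjusted p under 0.05. Snhg15 stands apart at 3.65, and Snhg1 at 0.26 and Gas5 at -0.27 lie on either side of 0.

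Other genes that handle these RNAs moved in both directions. Of 8 snoRNA-binding core proteins, 3 fell and 0 rose by edgeR, with a median of -0.24. At an unadjusted p under 0.05, 4 were lower and 1 higher, and DESeq2 and limma-voom each called 3 lower and 0 higher. Dkc1, the pseudouridine synthase, fell from 13.5 to 7.08 CPM and its partner Nop10 from 29.6 to 17.5 CPM. Of 19 nonsense-mediated decay genes, which act on spliced host RNAs, 4 rose and 1 fell, with a median of 0.05. Upf2 went from 18.8 to 27.5 CPM and Nbas from 24.6 to 39.6 CPM, and the exon junction gene Rbm8a fell from 37.9 to 29.2 CPM. On total library size 2 of the core proteins were higher and 2 lower, and 9 of the decay genes were higher and 0 lower. The call of Rbm8a was also lost without any 1 of the senescent libraries. The glucocorticoid receptor gene Nr3c1, whose product Gas5 can bind, rose from 67.2 to 94.6 CPM, and its liver target Tat, tyrosine aminotransferase, fell from 1529 to 544 CPM. These were the 2 called of 10 receptor and target genes, whose median log2 fold change was -0.14.

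Snhg1 and Slc3a2, the heavy chain of amino acid transporters, start back to back, at annotated positions 106 bases apart. Slc3a2 had 68.2, 74.0 and 73.5 CPM in senescent and 48.2, 52.8 and 46.2 CPM in healthy replicates 1, 2 and 3. Every senescent library was above every healthy one, and the log2 fold change was 0.55 ± 0.11 (edgeR adjusted p = 0.0044). The difference between Slc3a2 and Snhg1 was not tested. Wdr74, 9.38 kb beyond Snhg1, was not called, at -0.03 ± 0.15 (edgeR adjusted p = 0.90). The shared stretch is shown from the base after Slc3a2 into Snhg1 (RefSeq promoter table, GRCm38.p6, chr19:8723370-8723536, plus strand), with the match to a TATA box (TATAAA, either strand) in capitals.

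Snhg1 promoter: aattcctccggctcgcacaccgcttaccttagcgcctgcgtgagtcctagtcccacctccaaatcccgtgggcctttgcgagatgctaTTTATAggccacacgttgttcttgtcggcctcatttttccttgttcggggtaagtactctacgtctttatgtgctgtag

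This match began 29 bases before the start used in that table, and 13.6% of all 32851 promoters of 300 bases held one. Promoters of 4 of the 7 RNAs were in the table: Malat1, Meg3, Gas5 and Snhg1. A half-site of the p53 motif, found in 8.36% of all promoters, matched in none of their windows, against 2 matches in 1 Cdkn1a window and 1 in the Mdm2 window. The window of Snhg15, the snoRNA host gene called higher, had 0 matches to it. The E-box bound by MYC (CACGTG, in 7.15%) was not matched in these letters in the windows of the 4 RNAs, and matched 1 time in that of Snhg15. The CRE half-site (TGACG, either strand, in 20.8%) matched 3 times in Malat1 and 2 times each in 1 window of Gas5 and of Meg3. The matches of Gas5 and Meg3 overlap, being both strands of 1 palindrome.

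Zbtb37, a zinc finger gene on the minus strand, overlaps the 5′ end of Gas5 by 428 bases. It rose from 3.76 to 5.52 CPM, a log2 fold change of 0.55 ± 0.16 (edgeR adjusted p = 0.024), a call lost in 3 of the fits that left out 1 library. The library kit keeps the strand, but no source used here gives the strand setting of the counting. Reads from the overlap could not be assigned with certainty.

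H19 (ENSMUSG00000000031; chr7:142575529-142578143, minus strand) had 0, 2 and 1 counts in senescent replicates 1, 2 and 3 and 3, 31 and 33 counts in healthy replicates 1, 2 and 3. These are 0, 0.0583 and 0.0289 CPM against 0.101, 1.21 and 1.17 CPM. Healthy replicates 2 and 3 carried nearly all of the counts, and healthy replicate 1 was close to the senescent libraries. It failed the low-count filter, so no test is given at the chosen settings. The summed counts were 27.9 times higher in healthy than in senescent libraries after scaling (95% interval 9.16 to 139, counting error only). With no filter the log2 fold change was -4.65 ± 1.01 (edgeR adjusted p = 0.0041), and DESeq2 gave -4.85 ± 1.19 (adjusted p = 2.7e-04). Without senescent replicate 1, 2 or 3 it passed the filter, at -4.09, -5.46 and -4.63 (edgeR adjusted p = 0.033, 0.025 and 0.047). Without healthy replicate 1 it was -5.19 (edgeR adjusted p = 9.5e-04), and without healthy replicate 2 or 3 it was not tested. It entered these fits through the healthy libraries, where it is high, so they are given as a description.

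H19 is also the precursor of miR-675, whose mature forms are shown because its seeds (bases 2 to 8, in capitals) define the targets of this microRNA. They are from RefSeq (GRCm38.p6, minus strand), at chr7:142577078-142577099 and chr7:142577112-142577133.

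miR-675-3p: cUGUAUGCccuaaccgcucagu

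miR-675-5p: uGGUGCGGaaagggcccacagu

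The seeds differ from each other, and the miR-675 gene itself had 0 counts in every library. Small RNAs are not captured by these libraries.

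Igf2, the growth factor gene that shares an enhancer region and an imprinting control with H19, had 1 count in senescent replicate 3 and 0 in every other library. Of 9 tested genes of the imprinted network that H19 is placed in, 4 rose and 2 fell. Igf2r, the receptor that degrades IGF2, went from 32.9 to 125 CPM, and Grb10, a growth factor receptor adaptor, from 0.901 to 12.2 CPM. Slc38a4, an amino acid transporter, fell from 873 to 248 CPM and Peg3 from 8.06 to 2.29 CPM. The network's median log2 fold change was -0.06.

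Of 7 tested genes that repress H19 after birth or keep imprints, 4 rose and 0 fell by edgeR, with a median of 0.61. At an unadjusted p under 0.05, 5 were higher and 0 lower, and DESeq2 and limma-voom each called 3 higher and 0 lower. The DNA methyltransferase gene Dnmt3a went from 12.9 to 20.7 CPM and Uhrf1, which guides maintenance methylation, from 0.300 to 3.22 CPM. The postnatal repressors Zhx2, at 16.7 and 14.7 CPM in healthy and senescent libraries, and Zbtb20, at 58.5 and 89.2 CPM, were not called. Among fetal liver genes, Afp alone was tested, and its log2 fold change was 1.11 ± 0.40 (edgeR adjusted p = 0.055). Near H19, Mrpl23 (34.8 kb) was not called, and Ascl2 (389 kb) had 0 counts in the healthy and 27, 12 and 25 counts in the senescent libraries, through which alone it entered the test.

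Meg3 (ENSMUSG00000021268; chr12:109541001-109571726, plus strand) had 11, 15 and 11 counts in senescent replicates 1, 2 and 3 and 0, 4 and 1 counts in healthy replicates 1, 2 and 3. These are 0.307, 0.437 and 0.318 CPM against 0, 0.156 and 0.0354 CPM. The groups did not overlap, as in 54.0% of tested genes, and Meg3 passed the low-count filter only through the senescent libraries. The summed counts, 37 against 5, gave a ratio of 5.91 with a 95% interval of 2.32 to 19.3 (counting error only). The fitted log2 fold change was 2.48 ± 0.76 (edgeR adjusted p = 0.030), given as a description because the group where Meg3 is high admitted it to the test. At a mean of at least 1 CPM it was not tested. The call was lost when senescent replicate 1, 2 or 3 or healthy replicate 1 or 3 was left out (adjusted p = 0.052 to 0.080), and the log2 fold change was 4.08 without healthy replicate 2.

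The rest of the Dlk1-Dio3 locus, from which Meg3 is transcribed, was at or near 0. Begain and Rtl1 had 0 counts, and Dlk1, Mirg and Dio3 had means under 0.4 CPM in both groups and failed the low-count filter. Dio3, a deiodinase gene, had 1, 1 and 5 counts in senescent replicates 1, 2 and 3 and 4, 9 and 18 counts in the healthy ones. DESeq2 and the fit with no filter each tested 4 genes of the locus, Meg3 included, and called 1 higher, Meg3, and 1 lower, Dio3. The nearest tested genes were far off: Wdr25, at 513 kb, rose by 1.84 ± 0.22 in log2 (edgeR adjusted p = 4.2e-04), and Ppp2r5c, at 875 kb, was not called. At its low level Meg3 was most like Cyp2d9, Acer2 and Tbc1d8 in profile, at root mean square differences of 0.289 to 0.299.

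Meg3 and several of the others are made by cell types other than hepatocytes, so the markers of those cells stand beside these results. Hepatocyte markers were the most abundant set, with summed levels of 88440 to 103124 CPM in senescent and 151710 to 169887 CPM in healthy libraries, and 7 of 10 fell. Stellate cell and fibroblast markers summed to 39.0 to 56.0 CPM in senescent and 13.8 to 24.6 CPM in healthy libraries, with 6 of 11 tested higher, and Acta2 was at 0 counts in the healthy libraries. Macrophage markers summed to 206 to 397 and 78.6 to 222 CPM, with 3 of 12 higher. Endothelial markers summed to 149 to 196 and 129 to 163 CPM, with 2 of 12 higher. Cholangiocyte markers summed to 19.8 to 26.8 and 15.5 to 23.8 CPM, with 2 of 5 tested higher and 1 lower. Lymphocyte markers summed to 4.46 to 8.68 and 1.63 to 4.88 CPM, and the 1 tested was not called. These counts moved with the settings. On total library size 8 stellate, 10 macrophage, 6 endothelial and 2 cholangiocyte markers and the 1 lymphocyte marker were higher, and 5 hepatocyte markers were lower. Leaving out 1 library gave 2 to 5 stellate, 1 to 6 macrophage and 1 to 3 endothelial markers higher, and 4 to 6 hepatocyte markers lower. Between the groups, Meg3 and Pvt1 went in the direction of the stellate and macrophage sets and H19 against it, though the macrophage sums overlapped. Among the healthy libraries, replicate 2 had the highest sums of both sets and the highest Meg3, while Pvt1 was highest in replicate 1. The part of these cells in the results was not tested.

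Healthy replicate 1 recurred in these results. Among the healthy libraries it had the highest Malat1, Neat1 and Pvt1 and the lowest Gas5, Snhg1, H19 and Meg3. It also had the lowest Mdm2 and Cdkn1a and the largest total count. Its summed macrophage, stellate and endothelial markers lay between those of the other healthy libraries, and its hepatocyte (169887 CPM), cholangiocyte (23.8 CPM) and lymphocyte (4.88 CPM) markers were the highest of the healthy ones. Its sample code in the labels ends in a different letter from the codes of the other 5, and no source used here says what that letter stands for. The part of this library in each result is given by the values without it.

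**Figure D4:**
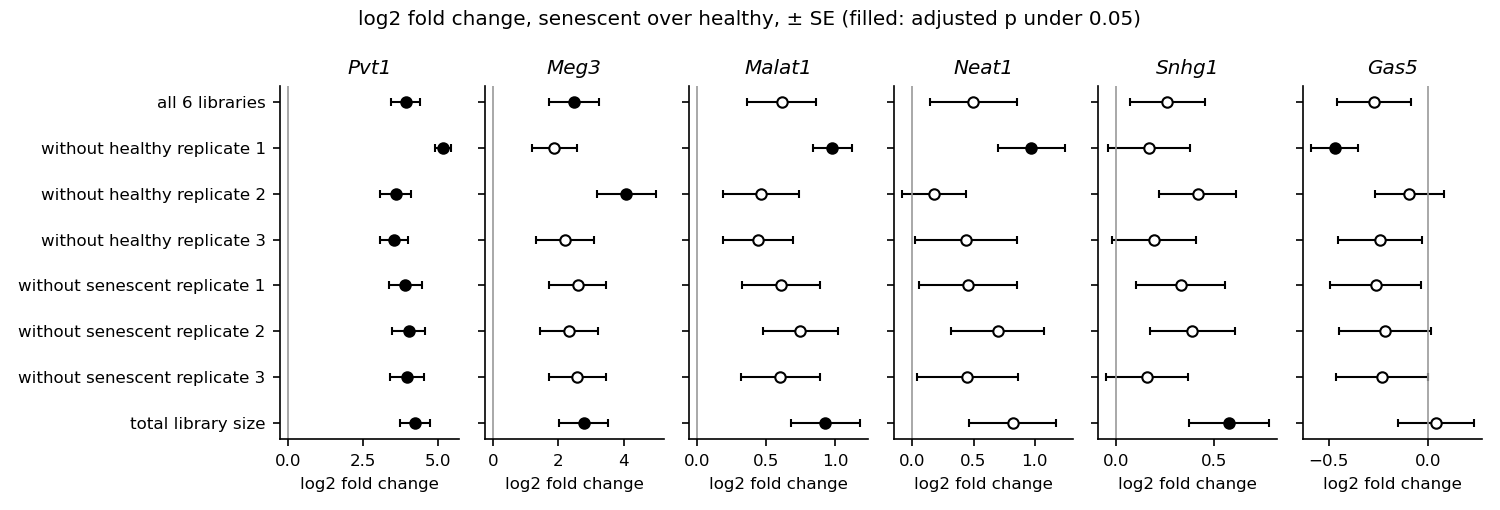
Log2 fold changes (senescent over healthy, ± SE) of the 6 tested long noncoding RNAs with all 6 libraries, with each library left out, and on total library size, with filled symbols for an adjusted p under 0.05 and separate axes per panel. Pvt1 is called in every line shown, Malat1, Neat1 and Gas5 become called without healthy replicate 1, and among these lines Meg3 is called only with all libraries, without healthy replicate 2 and on total library size.

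As a group of candidates of the p53 response, 7 long noncoding RNAs listed as linked to p53 (Pvt1, Meg3, Neat1, H19, Tug1, Lncpint and Trp53cor1) gave 5 tested genes. Pvt1 and Meg3 were called higher, both after entering the test through the senescent libraries. With a filter at a mean of at least 1 CPM, 3 were tested and 1 was higher. Lncpint, with a healthy mean of 0.194 CPM and a senescent mean of 0.629 CPM, was not called (log2 fold change 1.69, edgeR adjusted p = 0.098). Trp53cor1, known as lincRNA-p21 and transcribed beside Cdkn1a, was not tested. It had 17, 15 and 2 counts in senescent replicates 1, 2 and 3 and 2, 1 and 1 counts in the healthy ones, so senescent replicate 3 lay with the healthy libraries.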

How the data were processed

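Poly-A selected RNA of 6 hepatocyte samples, 3 senescent and 3 healthy by their titles, had been sequenced. The authors deposited 1 table of whole-number read counts per gene, not normalised. The submitters' processing notes list STAR 2.7.1a, cutadapt 1.16, featureCounts, FastQC, MultiQC 1.3, DESeq2 1.34.0 and the build GRCm38. Annotation release, strand setting and filters: not given in the sources used here. The column of healthy replicate 2 differs in 1 letter from that sample's code in the labels, so results without that library are among the alternatives. All rows name a gene, and symbols were found for 31976 IDs (99.7%).

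Genes were kept by filterByExpr (minimum count 10, minimum total 15), scaled by TMM (senescent factors 1.07 to 1.15, healthy factors 0.893 to 0.909) and tested with edgeR 4.0.16 in R 4.3.3 (glmQLFit, glmQLFTest, no covariate), two-sided, adjusted over 12949 genes. SEs were derived as the absolute log2 fold change divided by √F. The steps were tested on simulated data. Coordinates, lengths and gene classes come from GENCODE M21 on GRCm38, which need not be the authors' release. Alternatives were DESeq2 1.42.0, limma-voom (limma 3.58.1), DESeq2-type size factors, total library size, no filter, a mean of at least 1 CPM, removal of the 50 most abundant genes, a threshold of 0.01, a replicate block, and each library left out.

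The 7 members and the gene lists were chosen with earlier results of these data known. Named genes are the members, Mdm2 and Cdkn1a, from each list the 2 higher and 2 lower called genes with the smallest p (the 2 most abundant where none was called), the nearest tested protein-coding gene on each side, and the 3 most similar named genes of at least 10 CPM. Genes outside this rule, such as Sfpq, Nono, Pspc1, Zhx2, Zbtb20, Lncpint and Trp53cor1, were added after their values were seen. Some items the rule selects are not reported here. Same-numbered senescent and healthy samples did not deviate together (r = 0.23, -0.17 and -0.04 across genes), so no pairing was used.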

Additional observations from a re-analysis of the deposited data

How the results depend on the processing

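Pvt1 was called higher under all 15 alternatives, with log2 fold changes of 3.54 to 5.18 when a library was left out. Total library size, which moved the median of all genes from 0.01 to 0.33, gave 0.93 for Malat1, 0.58 for Snhg1 and 0.039 for Gas5, the first 2 called and the last with its sign turned. Malat1 was also called by DESeq2 (0.60) and with the replicate block (0.67, edgeR adjusted p = 0.032), the block changing no other call of the 6 tested RNAs. Leaving out 1 library gave 0.44 to 0.98 for Malat1, 0.18 to 0.97 for Neat1, -0.47 to -0.095 for Gas5, 0.16 to 0.42 for Snhg1 and 1.88 to 4.08 for Meg3. At an adjusted p under 0.01, Meg3 (2.48) was no longer called. For the ratio of Neat1 to Malat1, leaving out 1 library gave log2 differences of -0.32 to 0.13. Over all genes, calls were 2644 higher and 2680 lower, against 4861 and 1285 on total library size, 1570 and 1498 at an adjusted p under 0.01, and 1836 to 2691 higher and 1489 to 2789 lower with a library left out, the lowest of both without senescent replicate 3. The causes were not tested. Of 450 counts of gene lists under alternatives, 349 stayed within 1.5 times, counts of 0 that stayed at 0 being included. No result met a rule for a closer look, the groups of 3 being too small for a test of single outlying samples. Depth limits Meg3 and H19, whose counts were 33 or fewer in every library.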

Other observations

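Other named long noncoding RNAs showed changes of moderate size. Of 13 tested, 1 rose and 2 fell by edgeR, with a median log2 fold change of 0.02. Oip5os1, a conserved RNA that pairs with the microRNA miR-7, went from 40.1 to 54.1 CPM (edgeR adjusted p = 0.015), a call lost without senescent replicate 3 or healthy replicate 2. Mir22hg, the host of miR-22, fell from 18.8 to 9.77 CPM (edgeR adjusted p = 0.017), and Dleu2, the host of miR-15a and miR-16-1, from 14.2 to 7.03 CPM (edgeR adjusted p = 0.0042). The Mir22hg call was lost on total library size and without senescent replicate 2 or 3. Total library size gave 5 higher and 1 lower in this list, and leaving out 1 library 0 to 5 higher and 1 to 3 lower.

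Xist, the long noncoding RNA that silences 1 X chromosome in females, was counted in every library, and the Y-linked Ddx3y, Uty, Kdm5d and Eif2s3y had 0 counts throughout. Xist had 350, 378 and 454 CPM in senescent replicates 1, 2 and 3 and 212, 140 and 280 CPM in the healthy ones. The groups did not overlap, and the log2 fold change was 0.90 ± 0.24 (edgeR adjusted p = 0.017), with the call lost without senescent replicate 3.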
